A study of Macaca nemestrina with 58 samples.

Results

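Vaginal pinch biopsies of 3 pig-tailed macaques (Macaca nemestrina) given the Low dose of LNG were compared with untreated baseline biopsies of the same animals. The labels do not spell out LNG, which is taken from the series design as the combined oral contraceptive arm (a progestin with an estrogen). All arrays titled LNG-Low were taken, which gave 6 of the 58 arrays of the series, of which 3 carry the time label 5th and 3 the time label 7th. Each array measured the gene expression of 1 biopsy on an Affymetrix chip made for the rhesus macaque, a related species. The animals, labelled BB173, BB537 and BB4800, each gave 1 treated biopsy at each time. At the 7th time, the arrays of BB173 and BB537 also carry the label (A-), which the sources used here do not explain, and that of BB4800 does not. The labels give the Low dose no unit, and the series places biopsies of the oral contraceptive arm 5 weeks after the first dose.

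The baseline holds 5 samples in 3 phases of the menstrual cycle. BB173 gave an early follicular and an early luteal biopsy, BB537 a late follicular one, measured on 2 arrays that were averaged, and BB4800 a late follicular and an early luteal one. No animal went without a drug at the later times, so the drug, the elapsed time and an earlier biopsy of the same animal cannot be told apart. Ages are not given in the sources used here. In the values below, treated libraries follow the order BB173, BB537, BB4800, and baseline samples the order early follicular and early luteal of BB173, late follicular of BB537, late follicular and early luteal of BB4800. A level is a deposited log2 value, and a change is the mean of an animal's treated levels minus the mean of its baseline levels, averaged over 3 animals and given with its standard error (SE). A change of 1 is a doubling. A probe set or gene passed at an adjusted p under 0.05 in limma.

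The vaginal lining is a stratified squamous epithelium. Basal cells divide, and as their daughters move up they turn on keratins, desmosome proteins and then the proteins of the cornified envelope, which transglutaminases cross-link under the membrane of the outermost cells. Proteases and their inhibitors control the shedding of these cells, and lipids between them limit water loss and entry of microbes. Estrogen is known to thicken this epithelium and load it with glycogen, and progestins are known to oppose estrogen in many reproductive tissues. Beneath it lie a collagen-rich stroma with fibroblasts and vessels, and then smooth muscle.

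The labelled tissue was checked by the squamous genes KRT13, KRT4, CRNN and TP63, and 1 library stood apart. In the 5th library of BB4800, TP63, the master transcription factor of stratified epithelia, had a level of 5.79, against 11.09 to 12.35 in the other 56 samples of the series. KRT13, a keratin of non-cornified squamous epithelium, was at 10.42 there and between 13.17 and 14.19 in the others, and its partner KRT4 was at 9.0 against 11.48 to 14.06. MYH11, the smooth muscle myosin, was at 13.19 in that library and at most 12.97 elsewhere. KRT5 had no named probe set above the filter on dim values. For both times together, counts of list genes that passed are given with and without it where they differ. Genes whose call rests on this library, and some whose size does, are given in the same way. In tissue pieces such as these, fewer cells of a type and less RNA per cell cannot be told apart.

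The GAPDH measure of RNA quality and the level of stromal genes also moved with treatment. The log2 level at the 3' end of GAPDH minus that at its 5' end, a difference that grows as RNA degrades, was 2.28, 2.58 and 2.68 at the 5th time and 2.14, 1.99 and 2.58 at the 7th, against 1.35, 1.87, 1.92, 1.48 and 1.82 at baseline. All 6 treated libraries lay above all baseline samples, with a mean change of 0.65 (exact two-sided permutation within animals, p = 0.0185, adjusted p = 0.0278 over 3 measures). The same difference for actin was 1.14 to 1.57 in treated libraries and 1.14 to 1.36 at baseline (exact permutation p = 0.167). Averaged over the genes of fibroblasts and smooth muscle, the level was 10.28, 9.23 and 11.60 at the 5th time and 9.10, 9.04 and 9.04 at the 7th, against 8.42, 8.83, 7.91, 8.29 and 8.36 at baseline. It rose by 1.43 (exact permutation p = 0.00926, the smallest that 108 arrangements can give, adjusted p = 0.0278). These permutations shuffled single libraries within animals, so the treated biopsies of an animal counted as separate samples. The stromal lists were chosen with earlier results of these data known, so their p is not independent support. Once limma took this GAPDH difference into the model, 0 probe sets passed for both times together; 2407 had an unadjusted p under 0.05, and the lowest adjusted p was 0.468. The gene list medians below move towards 0 or past it in that model for most epithelial lists, and are given beside several of them. The antimicrobial and the interleukin 1 and 36 medians moved from -0.94 and -0.99 to -0.15 and -0.51. Medians of fibroblast, smooth muscle and endothelium genes moved from 1.17, 1.64 and 0.81 to 0.62, 0.89 and 0.45. That of extracellular matrix genes moved from 1.29 to 1.49. Since GAPDH and treatment moved together in every animal, their parts cannot be told apart here.

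**Figure D1:**
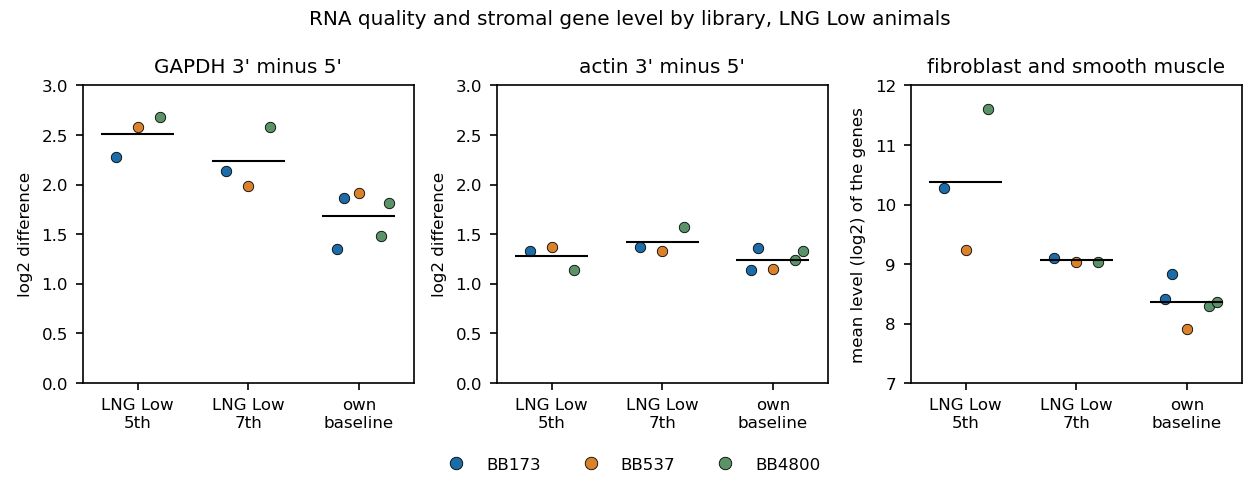
RNA quality and stromal gene level in each library of the 3 LNG Low animals (dots, coloured by animal; lines, means). The left and middle panels give log2 3' minus 5' differences of GAPDH and actin, and the right panel the mean log2 level of the fibroblast and smooth muscle genes; treated GAPDH values of 1.99 to 2.68 lie above the baseline range of 1.35 to 1.92.

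The main comparison asks how tissue under the Low dose differed from the same animals' untreated state. Genes of the upper squamous layers were far lower under LNG Low, and a minority of the measured genes of stroma, muscle and vessels rose. Over both times, 5118 of 31624 probe sets passed (16.2%), 2348 higher (7.42%) and 2770 lower (8.76%), and 851 and 1127 of them changed at least 2-fold. With 1 probe set, the brightest, standing for each of 11198 named genes, 871 rose (7.78%) and 1232 fell (11%). Without the 5th library of BB4800, 4043 probe sets passed, 1743 higher and 2300 lower, of which 3697 were among the 5118. Without the animal BB4800, 385 passed, without BB537 2563, and without the early follicular baseline of BB173 3327. The median change over all named genes was -0.02. With BB4800 left out, 0 genes of the antimicrobial, interleukin 1 and 36, interferon, smooth muscle and endothelium lists passed in limma. In that fit 5, 7, 7, 5 and 13 of them had an unadjusted p under 0.05 (2325 of 11198 named genes).

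TMPRSS11B, a membrane-bound serine protease of squamous epithelia, had the largest fitted fall among the named genes. Its level was 2.95, 6.05 and 3.03 at the 5th time and 2.49, 12.43 and 2.44 at the 7th, against 12.09, 12.29, 12.83, 12.61 and 12.48 at baseline. Of the 6 treated libraries, 5 lay far below the baseline range, and the 7th library of BB537 lay within it. The gene fell by 7.62 ± 1.71 (limma's SE, mean of 3 animals), with adjusted p = 0.0124. CRNN, which encodes cornulin of the late differentiating layers, had levels of 4.53, 8.58 and 5.77 at the 5th time and 4.26, 13.03 and 4.31 at the 7th, against 13.09, 12.79, 13.47, 13.38 and 13.29 at baseline. The same library of BB537 stood near baseline, and the gene fell by 6.50 ± 1.53 (adjusted p = 0.0152). With the GAPDH difference in the model the direction of both genes turned, to 0.73 for TMPRSS11B and 0.50 for CRNN, and neither passed. Several treated levels of these and the next genes lie under 5.53, the mean below which probe sets were dropped as dim, so the sizes of such falls are not exact and no folds are given.

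LORICRIN, which encodes loricrin, the most abundant envelope protein, followed another pattern. It was at 4.69, 5.01 and 6.05 at the 5th time and 4.03, 6.04 and 4.33 at the 7th, against 8.64, 11.06, 13.30, 13.20 and 13.22 at baseline. All 6 treated libraries were below all baseline samples, the 7th library of BB537 included, and LORICRIN fell by 7.10 ± 1.36 (adjusted p = 0.00625). SPINK6, an inhibitor of kallikrein proteases, had levels of 4.46, 4.24 and 5.01 at the 5th time and 4.01, 4.36 and 4.69 at the 7th, against 6.15, 10.19, 12.42, 9.19 and 13.00 at baseline. Its groups did not overlap either, although the early follicular baseline of BB173 was only 6.15, and it fell by 6.10 ± 1.47 (adjusted p = 0.0164). Among all named genes 2.99% were lower in every treated library than in every baseline sample, and 1.86% were higher.

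**Figure D2:**
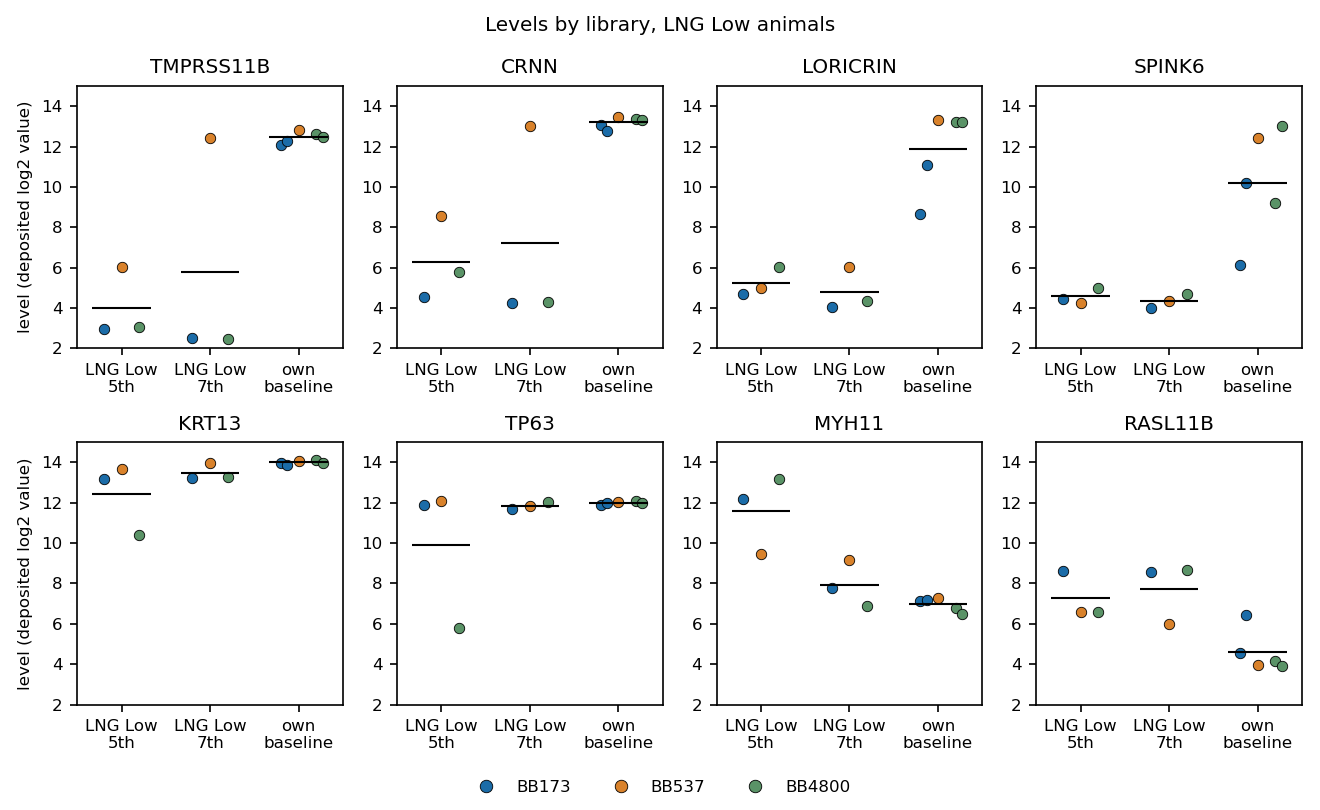
Deposited log2 levels of 8 genes in each library of the 3 LNG Low animals (dots, coloured by animal; lines, means), at the 5th and 7th times and at their own baseline. TMPRSS11B and CRNN were near baseline in the 7th library of BB537 alone, LORICRIN and SPINK6 were low in all 6 treated libraries, and TP63 was low, at 5.79, in the 5th library of BB4800 alone.

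Of 17 measured cornified envelope genes, 17 fell (11% of named genes fell), with a median change of -4.59 (-0.42 with the GAPDH difference in the model, where 0 passed), and 17 fell without the 5th library of BB4800 (9.19% of named genes). Without the animal BB4800, 4 of the 17 fell (157 of 11198 named genes), with a median of -4.01. The medians of the animals BB173, BB537 and BB4800 were -4.31, -1.93 and -5.43. The changes ran from -7.10 to -1.30. IVL, which encodes involucrin, an early scaffold of the envelope, had levels of 4.74, 7.66 and 6.14 at the 5th time and 5.17, 11.50 and 6.09 at the 7th, against 11.37, 10.41, 12.84, 12.58 and 12.44 at baseline. The 7th library of BB537 lay inside the baseline range, and IVL fell by 5.19 ± 1.03. The cross-linking transglutaminase genes TGM5 and TGM1 fell by 4.59 ± 0.54 and 4.60 ± 0.70, and EVPL, the envoplakin gene, fell by 2.06 ± 0.31.

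DSG1, the cadherin that holds upper-layer cells together at desmosomes, had levels of 4.41, 6.98 and 4.30 at the 5th time and 4.80, 8.60 and 5.52 at the 7th, against 10.42, 9.07, 11.10, 11.64 and 11.13 at baseline. Its 6 treated libraries were all below its baseline samples, with the 7th library of BB537 closest to them, and DSG1 fell by 4.97 ± 0.85 (adjusted p = 0.00403). Of 26 genes of desmosomes, gap and tight junctions, 12 fell and 0 rose (11% and 7.78% of named genes), with a median of -1.07, which turned to 0.05 with the GAPDH difference in the model. The desmosome genes PKP1 (plakophilin 1) and JUP (plakoglobin) fell by 3.11 ± 0.54 and 1.60 ± 0.29. Without the 5th library of BB4800, 9 junction genes fell and 1 rose (9.19% and 5.72% of named genes), and the median was -0.44. With the animal BB4800 left out, 1 fell (157 of 11198 named genes), and the median was -0.42.

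Proteases and their inhibitors of the epithelium fell in 18 of 21 measured genes, with a median of -2.93, and in 13 without the 5th library of BB4800 (11% and 9.19% of named genes). With the GAPDH difference in the model 0 passed, and the median turned to 0.08. With the animal BB4800 left out, 0 passed in limma (157 of 11198 named genes fell), with a median of -2.16. In that fit 15 had an unadjusted p under 0.05 (2325 of 11198 named genes). SPINK7, a serine protease inhibitor of squamous epithelia, had levels of 3.97, 5.30 and 4.61 at the 5th time and 4.50, 11.81 and 4.41 at the 7th, against 11.19, 11.94, 13.51, 13.28 and 13.06 at baseline. Again the 7th library of BB537 alone approached baseline, and SPINK7 fell by 6.98 ± 1.12. The serpin genes SERPINB13 and SERPINB2, which encode intracellular protease inhibitors, fell by 3.85 ± 0.69 and 2.73 ± 0.54. Also among the 10 largest falls were LOC717850 with -6.63 ± 1.32, LOC714943 with -6.10 ± 1.44, the lipase-family gene PNLIPRP3 with -5.52 ± 0.80 and LY6G6C, of the Ly6 surface protein family, with -5.50 ± 0.82.

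Of 21 suprabasal genes, expressed once cells leave the basal layer, 19 fell with a median of -2.70, and 15 fell without the 5th library of BB4800 (11% and 9.19% of named genes). The median was -0.14 with the GAPDH difference in the model. With the animal BB4800 left out, 6 fell (157 of 11198 named genes), with a median of -1.91. ANXA9, an annexin gene, fell by 3.89 ± 0.55, the calcium-binding CALML5 by 3.92 ± 0.56 and the keratin KRT80 by 2.76 ± 0.38. KRT13 and KRT4, the abundant keratins of this layer, fell by less, 1.06 ± 0.27 and 1.63 ± 0.40, and by 0.58 and 1.09 without that library (adjusted p = 0.026 and 0.0245). Of 8 basal keratinocyte genes 0 passed in limma and 3 had an unadjusted p under 0.05 (3935 of 11198 named genes), with a median of 0.03. TP63 had a change of -1.14 ± 0.41 (adjusted p = 0.0766), or -0.10 without the 5th library of BB4800, and the laminin-binding integrin gene ITGB4 one of 0.29 ± 0.11 (adjusted p = 0.102).

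Among 16 transcription factors of squamous differentiation 9 fell (11% of named genes), with a median of -0.93, or -0.07 with the GAPDH difference in the model. Without the 5th library of BB4800, 8 fell and 1 rose (9.19% and 5.72% of named genes). With the animal BB4800 left out, 2 fell (157 of 11198 named genes). OVOL1 and FOXN1, zinc finger and forkhead regulators of keratinocyte maturation, fell by 3.20 ± 0.44 and 1.89 ± 0.28. HOPX, a homeodomain protein gene, fell by 2.16 ± 0.41 on its brightest probe set, while another of its probe sets had a change of 0.10. Of 24 genes of barrier lipid and cholesterol synthesis, 21 fell with a median of -1.23, and 22 without the 5th library of BB4800 (11% and 9.19% of named genes). The median was -0.48 with the GAPDH difference in the model. With the animal BB4800 left out, 3 fell (157 of 11198 named genes), with a median of -0.95. In that fit 22 had an unadjusted p under 0.05 in limma (2325 of 11198 named genes). In 7 of the 24 every treated library was below every baseline sample, against 2.99% of named genes. ALOX12, a lipoxygenase gene, fell by 3.39 ± 0.41, and DHCR7 and NSDHL, enzymes of cholesterol synthesis, fell by 1.70 ± 0.22 and 1.16 ± 0.17.

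**Figure D3:**
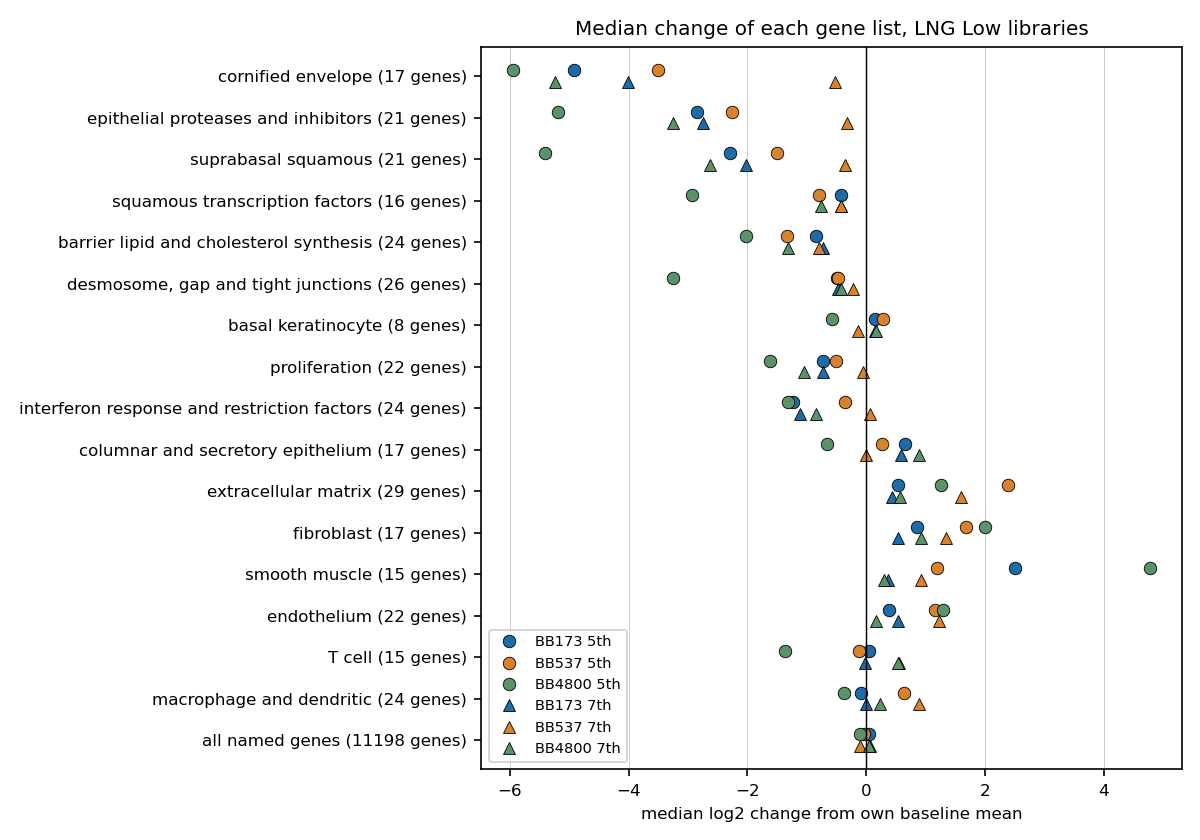
Median log2 change of each gene list from the animal's own baseline mean, in each treated LNG Low library (circles, 5th; triangles, 7th; coloured by animal). The medians of the cornified envelope list run from -5.94 in the 5th library of BB4800 to -0.52 in the 7th library of BB537, and smooth muscle stands highest, at 4.78, in the 5th library of BB4800.

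The libraries differed in how far they had moved. In the 7th library of BB537, 8 of the 17 cornified envelope genes were at least 2-fold below that animal's baseline, against 17, 15 and 17 of them at the 5th time and 17 in each of the other 7th libraries. Of 11198 named genes, 353 were that far below baseline in the 7th library of BB537. The number was 543, 680 and 1612 at the 5th time, and 513 and 642 in the 7th libraries of BB173 and BB4800. The list's median change in the 7th library of BB537 was -0.52, and -3.50 in the same animal at the 5th time. The 1232 genes that fell over both times, a set chosen on these libraries, had a median change of -0.56 in that library, and 93.1% of them were below baseline in it. In the 5th library of BB4800 their median was -1.55, and in the other 4 libraries it lay between -0.90 and -0.65. Of the 1232 genes, 1073 were below baseline in all 6 libraries.

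Many genes of cell division fell. Of 22 proliferation genes, 15 fell and 0 rose, with a median of -0.86, and 9 fell without the 5th library of BB4800 (11% and 9.19% of named genes fell). With the GAPDH difference in the model the median turned to 0.07. With the animal BB4800 left out, 2 fell (157 of 11198 named genes), with a median of -0.53. MKI67, the Ki-67 antigen of dividing cells, had levels of 5.77, 6.89 and 4.88 at the 5th time and 4.77, 7.80 and 5.12 at the 7th, against 8.30, 6.86, 7.67, 7.89 and 7.61 at baseline. It was lowest in BB173 and BB4800 and near baseline in the 7th library of BB537, and it fell by 1.80 ± 0.40 (adjusted p = 0.0113). AURKB and CDK1, kinases of mitosis, fell by 1.20 ± 0.16 and 1.61 ± 0.25, and the cell cycle transcription factor FOXM1 by 1.62 ± 0.27.

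Genes of epithelial defence were mixed, with more falls than rises. IL36RN, the antagonist of the interleukin 36 receptor, had levels of 3.49, 3.63 and 3.82 at the 5th time and 3.05, 7.19 and 3.45 at the 7th, against 10.16, 7.18, 11.69, 11.67 and 10.88 at baseline. The 7th library of BB537 was the highest treated one, with a change of -4.5 from that animal's own baseline. IL36RN fell by 6.44 ± 1.09. Of 14 genes of the interleukin 1 and 36 families 4 fell (11% of named genes). IL36A, an epithelial alarm cytokine, fell by 4.71 ± 1.07, and IL1RN, the interleukin 1 receptor antagonist, fell by 3.78 ± 0.68. Of 13 antimicrobial genes 5 fell and 1 rose (11% and 7.78% of named genes). Without the 5th library of BB4800, 4 fell and 1 rose (9.19% and 5.72% of named genes). S100A12, a calcium-binding protein of neutrophils that keratinocytes also make, fell by 3.70 ± 0.63, the defensin DEFB1 by 2.74 ± 0.56 and PGLYRP3, which binds bacterial cell walls, by 2.44 ± 0.44.

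Of 24 genes of the interferon response and restriction of viruses, 8 fell (11% of named genes) with a median of -0.93, which turned to 0.17 with the GAPDH difference in the model. Without the 5th library of BB4800, 3 fell and 1 rose, shares near those of all named genes (9.19% and 5.72%). MX2, a restriction factor of HIV, fell by 1.70 ± 0.41, and IRF7, a transcription factor of the interferon response, by 1.32 ± 0.27, though another IRF7 probe set had a change of 0.07. The exonuclease ISG20 fell by 0.87 ± 0.19, and its adjusted p was 0.173 without that library. Of 25 chemokines and cytokines 3 rose and 3 fell, shares near those of all named genes (7.78% and 11%). Without the 5th library of BB4800, 2 rose and 3 fell (5.72% and 9.19% of named genes). CXCL11, a ligand of the T cell receptor CXCR3, fell by 1.19 ± 0.16 and IL10, a suppressive cytokine, by 0.76 ± 0.18, and TGFB1 rose by 0.60 ± 0.14.

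CD4 and CXCR4 did not pass over all 6 libraries. CD4, the main HIV receptor, had levels of 6.30, 6.01 and 5.90 at the 5th time and 5.77, 6.88 and 7.00 at the 7th, against 6.25, 6.85, 5.93, 5.99 and 6.35 at baseline. The groups overlapped, and the change was 0.10 ± 0.20 (adjusted p = 0.773). CXCR4, a coreceptor, was at 8.98, 7.34 and 7.00 at the 5th time and 8.88, 8.39 and 9.38 at the 7th, against 8.51, 7.89, 7.53, 7.72 and 7.97 at baseline. Its change was 0.47 ± 0.20 (adjusted p = 0.13), and it passed at 0.87 without the 5th library of BB4800 (adjusted p = 0.033). Of 14 genes of HIV receptors and homing, 1 rose and 2 fell, near the shares of all named genes (7.78% and 11%). Without the 5th library of BB4800, 2 rose and 2 fell (5.72% and 9.19% of named genes). ITGB1, the beta 1 integrin, rose by 0.98 ± 0.19 with no overlap between groups, and the lectin CLEC7A and the proteoglycan SDC1 fell by 1.65 ± 0.36 and 1.13 ± 0.31. SDC1 fell by 0.43 without the 5th library of BB4800 (adjusted p = 0.0398).

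PGR and ESR1 did not pass. PGR, the progesterone receptor, was at 9.39, 9.20 and 9.97 at the 5th time and 9.09, 9.87 and 9.37 at the 7th, against 9.86, 9.81, 9.61, 9.46 and 9.66 at baseline, with a change of -0.19 ± 0.36 (adjusted p = 0.755). ESR1, the estrogen receptor alpha, was at 10.59, 10.99 and 10.49 at the 5th time and 10.43, 10.90 and 10.47 at the 7th, against 10.84, 11.01, 10.76, 11.13 and 10.53 at baseline, with a change of -0.19 ± 0.24 (adjusted p = 0.622). For both genes the treated range overlapped the baseline range. Of 22 estrogen-responsive genes 6 fell and 1 rose (11% and 7.78% of named genes), over a range of -1.47 to 1.21. Without the 5th library of BB4800, 5 fell and 1 rose (9.19% and 5.72% of named genes). The prolactin receptor PRLR fell by 1.46 ± 0.33, the growth factor AREG by 1.47 ± 0.33 and OLFM1, a secreted glycoprotein, by 0.99 ± 0.20, and AREG had an adjusted p of 0.063 without the 5th library of BB4800.

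Of 23 genes known to respond to progestins or glucocorticoids, 1 rose and 3 fell, near the shares of all named genes (7.78% and 11%), over a range of -2.55 to 1.15 with a median of -0.03. FKBP5, a chaperone that both hormones induce, was at 7.28, 8.20 and 8.33 at the 5th time and 7.52, 8.83 and 8.10 at the 7th, against 8.14, 8.22, 7.71, 8.33 and 8.32 at baseline. Its change was -0.03 ± 0.24 (adjusted p = 0.942), and -0.78, 0.80 and -0.11 in BB173, BB537 and BB4800. ELF5 and KLF4, epithelial transcription factors, fell by 2.55 ± 0.45 and 1.43 ± 0.21, and the signal protein WNT4 by 1.03 ± 0.21. Among 12 genes of steroid receptors and metabolism, the membrane heme protein PGRMC1 rose by 0.53 ± 0.14 and HSD17B8, a hydroxysteroid dehydrogenase, fell by 0.73 ± 0.14. MYBPC1, a myosin-binding protein gene, was at 9.21, 10.45 and 7.31 at the 5th time and 10.41, 6.57 and 9.43 at the 7th, against 7.79, 5.96, 6.21, 3.67 and 3.17 at baseline, with a change of 3.40 ± 1.23 that did not pass (adjusted p = 0.0766).

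Of the 11 measured genes of glycogen metabolism, 1 rose and 1 fell, near the shares of all named genes (7.78% and 11%). Without the 5th library of BB4800, 0 rose and 1 fell (5.72% and 9.19% of named genes). EPM2A, the phosphatase laforin, rose by 0.74 ± 0.22 (adjusted p = 0.068 without the 5th library of BB4800), and the glycogen synthase GYS1 fell by 0.79 ± 0.20. Among 23 genes of the mitochondrial respiratory chain SDHA, a subunit of complex II, rose by 1.21 ± 0.19. NDUFS1, of complex I, fell by 0.46 ± 0.11 on its brightest probe set, with 0.02 on another. Of 16 immediate early and stress genes, JUNB and FOSL2, of the AP-1 transcription factor family, fell by 0.95 ± 0.30 and 0.53 ± 0.15, and neither passed without that library (adjusted p = 0.147 and 0.0501).

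Part of the stromal genes rose. Of 29 extracellular matrix genes 11 rose and 0 fell (7.78% of named genes rose), with a median of 1.29 (1.49 with the GAPDH difference in the model), and 6 rose without the 5th library of BB4800 (5.72% of named genes). The collagen gene COL12A1 rose by 1.77 ± 0.40, and the small proteoglycans DCN (decorin) and OGN (osteoglycin) by 1.79 ± 0.45 and 2.41 ± 0.57, although OGN had an adjusted p of 0.0593 without that library. Without the animal BB537 0 of the 29 passed in limma. In that fit 9 had an unadjusted p under 0.05, near the share of all named genes (3196 of 11198). Without BB4800 0 passed, and 19 had an unadjusted p under 0.05 (2325 of 11198 named genes). The animal medians in BB173, BB537 and BB4800 were 0.55, 2.09 and 0.97.

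Of 17 fibroblast genes 7 rose, and 6 without the 5th library of BB4800 (7.78% and 5.72% of named genes). With the animal BB537 or BB4800 left out, 0 passed in limma (306 and 15 of 11198 named genes rose). The medians were then 1.22 and 1.06. In each fit 9 had an unadjusted p under 0.05 (3196 and 2325 of 11198 named genes). FAP, a surface protease of activated fibroblasts, rose by 2.27 ± 0.51, SERPINF1, a secreted serpin that inhibits vessel growth, by 1.75 ± 0.40 and IGFBP6, which binds insulin-like growth factor II, by 1.47 ± 0.33. Of 16 matrix proteases and inhibitors 2 rose and 2 fell (7.78% and 11% of named genes). Without the 5th library of BB4800, 1 rose and 2 fell (5.72% and 9.19% of named genes). The lysosomal protease CTSL rose by 1.30 ± 0.27, and MMP7, a matrilysin made by epithelia, and PLAUR, the urokinase receptor, fell by 0.75 ± 0.14 and 0.89 ± 0.25.

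Smooth muscle genes varied widely between libraries. MYH11 had levels of 12.18, 9.44 and 13.19 at the 5th time and 7.77, 9.16 and 6.89 at the 7th, against 7.14, 7.16, 7.29, 6.76 and 6.51 at baseline. The 5th libraries of BB4800 and BB173 were highest, and the 7th library of BB4800 was within the baseline range. MYH11 rose by 2.75 ± 0.81 (adjusted p = 0.0362), but by 1.70 with adjusted p = 0.197 without the 5th library of BB4800, where it did not pass. Of 15 smooth muscle genes 6 rose, with a median of 1.64, and 1 passed without that library (7.78% and 5.72% of named genes). That gene was KCNMB1, a potassium channel subunit of smooth muscle, which rose by 2.33 ± 0.46 (adjusted p = 0.012 without the library), while the tropomyosin TPM1 rose by 1.59 ± 0.42 and had an adjusted p of 0.0793. The part of biopsy depth in these changes was not tested.

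Of 22 endothelial genes 7 rose, and 1 without the 5th library of BB4800 (7.78% and 5.72% of named genes). The vessel receptors TEK and TIE1 rose by 1.05 ± 0.28 and 1.11 ± 0.31 with no overlap between groups, yet did not pass without that library (adjusted p = 0.0707 and 0.0664). CLDN5, the tight junction claudin of endothelium, rose by 0.81 ± 0.18 and passed either way. Of 6 melanocyte and nerve genes, the pigment cell transporter OCA2 fell by 1.97 ± 0.27, and the neuronal filament PRPH and the glial S100B rose by 2.22 ± 0.49 and 1.55 ± 0.48, not passing without that library.

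The other genes named for their large rises begin with VNN2. VNN2, a vanin of the pantetheinase family, had levels of 9.39, 10.30 and 5.41 at the 5th time and 10.17, 5.91 and 9.41 at the 7th, against 8.88, 5.02, 4.02, 3.50 and 3.57 at baseline. BB173 had a high early follicular baseline, the groups overlapped, and VNN2 rose by 3.60 ± 1.01 (adjusted p = 0.0304). RASL11B, a small GTPase of the RAS-like family, was at 8.63, 6.58 and 6.60 at the 5th time and 8.55, 6.01 and 8.69 at the 7th, against 4.56, 6.43, 3.95, 4.15 and 3.90 at baseline. Every treated library exceeded its own animal's baseline, as the rule that picked these large rises requires. RASL11B rose by 3.02 ± 0.53 (adjusted p = 0.00442). The complement protease MASP1 rose by 3.11 ± 0.81, the prostacyclin synthase PTGIS by 2.89 ± 0.66, the secreted collagen-repeat protein CTHRC1 by 2.78 ± 0.63 and the stathmin STMN2 by 2.77 ± 0.72. DPT (dermatopontin), PCOLCE2, which enhances procollagen processing, and IGFBP3 rose by 2.55 ± 0.73, 2.53 ± 0.46 and 2.52 ± 0.55, and DPT had an adjusted p of 0.0504 without the 5th library of BB4800.

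Of 17 columnar and secretory genes 2 rose, a share near that of all named genes (7.78%), and 4 without the 5th library of BB4800 (5.72%), with medians of 0.41 and 0.95. MSMB, a secretory protein of mucous glands, had levels of 12.57, 8.01 and 6.20 at the 5th time and 12.39, 3.36 and 10.16 at the 7th, against 3.98, 4.28, 3.94, 3.71 and 4.10 at baseline. It was far above baseline in BB173 at both times and in BB4800 at the 7th, and below baseline in the 7th library of BB537, and it rose by 4.79 ± 1.38 (adjusted p = 0.0333). The simple-epithelium keratin KRT18 rose by 1.25 ± 0.38, with an adjusted p of 0.106 without the 5th library of BB4800. PIGR, the receptor that carries IgA across epithelia, had a change of 2.23 ± 0.77 (adjusted p = 0.0652), and passed at 2.73 without that library (adjusted p = 0.0416).

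Few immune cell markers passed. Of all named genes 7.78% rose and 11% fell, and 5.72% and 9.19% without the 5th library of BB4800. Of 15 T cell genes 1 fell, FOXP3 of regulatory T cells by 0.48 ± 0.14. Without the 5th library of BB4800 it did not pass (adjusted p = 0.0729), and 1 T cell gene rose, GATA3, a transcription factor that keratinocytes also express, at 0.99 (adjusted p = 0.0197). In limma 0 of 13 natural killer and cytotoxic genes, 4 Langerhans cell genes and 5 blood genes passed. Of these 0, 0 and 1 had an unadjusted p under 0.05 (3935 of 11198 named genes). Of 24 macrophage and dendritic genes CD68 fell by 0.72 ± 0.22 on its brightest probe set, while another had a change of 1.91, and it did not pass without that library (adjusted p = 0.212). Of 11 B and plasma cell genes the adaptor BLNK fell by 1.42 ± 0.28, and by 0.94 without that library. Of 7 mast cell genes 2 rose, and 2 that did not pass were below their own baseline in all 6 treated libraries. The risers were the protease CPA3, by 2.05 ± 0.49, and the receptor KIT. KIT had levels of 8.27, 7.72 and 8.74 at the 5th time and 8.07, 7.35 and 8.16 at the 7th, against 5.72, 6.76, 5.57, 5.98 and 6.78 at baseline. All treated values of KIT were above all baseline values, and it rose by 1.99 ± 0.44; melanocytes carry KIT too. The S100A12 described above was the member of the 2 measured neutrophil genes that fell.

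**Figure D4:**
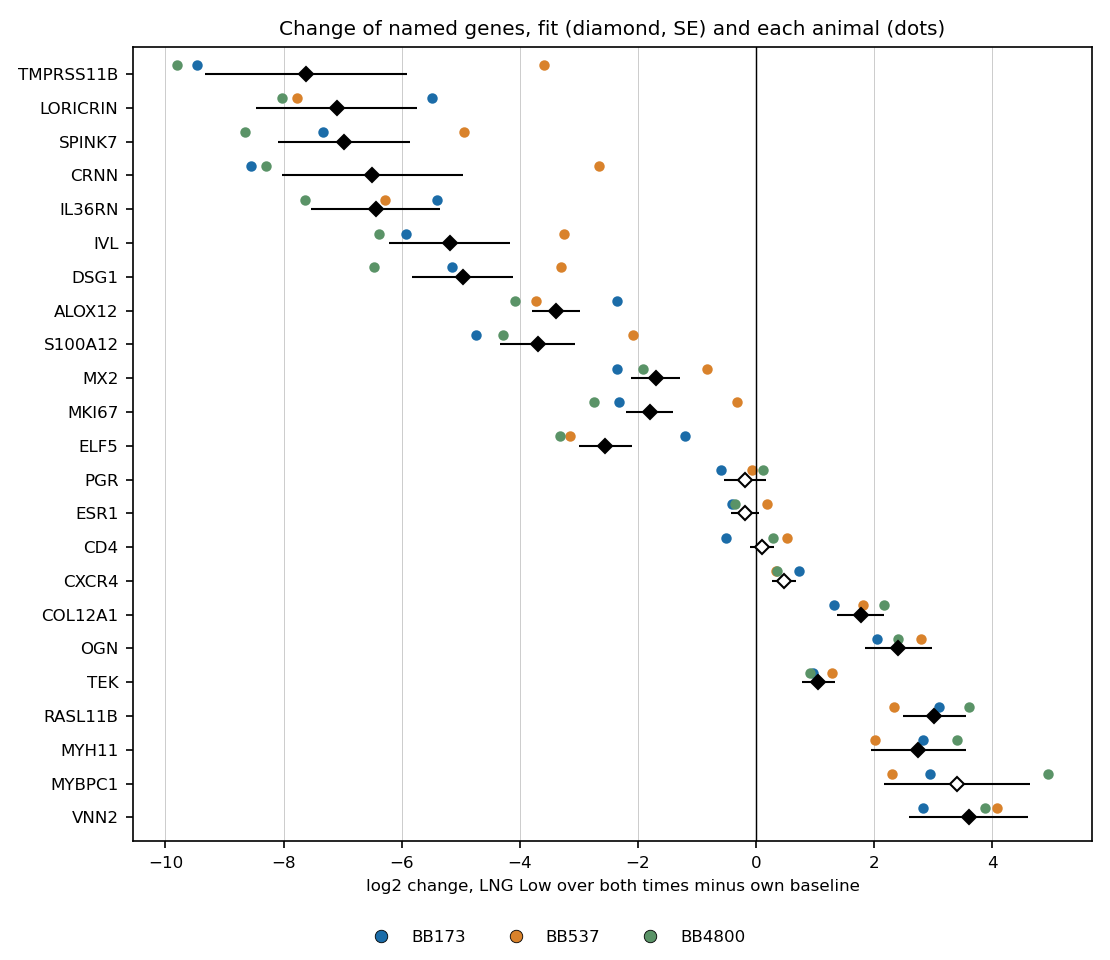
Log2 change of named genes over both times (diamonds, means of 3 animals with limma's SE, filled where adjusted p was under 0.05) and the change in each animal (dots). TMPRSS11B and CRNN changed least in BB537, at -3.59 and -2.66, and PGR, ESR1, CD4, CXCR4 and MYBPC1 did not pass.

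With each time tested alone, the 5th libraries gave most of the calls. At the 5th time 5210 probe sets passed (16.5%), 2303 higher and 2907 lower, and 486 without the 5th library of BB4800, 56 higher and 430 lower. Without the late follicular baseline of BB4800, 3041 passed. Of the cornified envelope genes, 17 of 17 fell (11.6% of named genes fell), and 12 without that library (2% of named genes). Proteases and inhibitors fell in 19 of 21, and in 9 without it. Smooth muscle genes rose in 13 of 15 (7.34% of named genes rose), and in 0 without it (0.17%). Without it 3 had an unadjusted p under 0.05 in limma (2125 of 11198 named genes).

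At the 7th time 226 probe sets passed (0.715%), 17 higher and 209 lower, and the count hung on single samples. It was 0 without the 7th library of BB4800, 1 without that of BB173 and 360 without that of BB537. Leaving out a baseline sample gave 3 without the early follicular one of BB173, 430 without its early luteal one, and 2 and 7 without the late follicular and early luteal ones of BB4800. Of the cornified envelope genes 10 of 17 fell (1.02% of named genes fell), with a median of -4.06. Proteases and inhibitors fell in 6 of 21 and suprabasal genes in 7 of 21. In limma 0 genes of the matrix, fibroblast, smooth muscle and endothelium lists passed. Of these lists 2, 3, 1 and 1 genes had an unadjusted p under 0.05 (1966 of 11198 named genes). LORICRIN had a change of -7.24 ± 1.96 at the 7th time and -6.79 ± 1.96 at the 5th (adjusted p = 0.0639 and 0.0168), and TMPRSS11B one of -7.24 ± 1.52 and -9.02 ± 1.52 (adjusted p = 0.0237 and 0.00019).

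The 7th time was also tested against the 5th, to see whether the times could be averaged. In limma, 0 of 31624 probe sets passed (0%), though 2096 had an unadjusted p under 0.05, and 3 arrays a time limit the precision. The count was 132 without the 5th library of BB173 and 205 without that of BB537, fits in which the 5th library of BB4800 carries more weight, and 0 without that library, where 319 had an unadjusted p under 0.05. Smallest in p were the chaperone HSPA12A with -2.24 ± 0.56, the guanine exchange factor DOCK8 with 0.98 ± 0.25 and the homeobox gene PITX1 with 1.68 ± 0.43 (adjusted p = 0.603 for each). HSPA12A was at 6.53, 5.46 and 9.71 at the 5th time and 5.13, 5.24 and 4.59 at the 7th, against 5.31, 5.58, 4.92, 5.72 and 6.78 at baseline, so its high value was that of the 5th library of BB4800.

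The last comparison asks whether the Low dose changed the mucosa differently from the High dose of LNG, given to 3 other animals (BB967, BB269 and BB4870). The High animals each had a late luteal baseline with an early or late follicular one, and no Low animal had a late luteal one, so dose and baseline phase cannot be told apart. The unexplained label (A-) is on the 5th array of BB4870 and the 7th arrays of BB269 and BB4870, and not on those of BB967. The part of this label in the dose comparison was not tested. The difference between the doses' changes passed for 2 of 31624 probe sets (0.00632%), both lower under Low. One is a probe set of TRIM7, a ubiquitin ligase gene, which had levels of 5.34, 7.08 and 5.85 at the 5th time and 5.64, 7.16 and 5.80 at the 7th, against 7.54, 7.26, 8.87, 8.05 and 8.11 at baseline in the Low animals. Its 6 treated libraries were all below baseline, and its change was -1.91, -1.76 and -2.25 in the Low animals, against -0.41, -0.29 and -0.13 in the High animals. The difference was -1.69 ± 0.18 (adjusted p = 0.00993). On the brightest probe set of TRIM7 it was -1.54 ± 0.44 and did not pass in limma (adjusted p = 0.46). The other probe set that passed, MmugDNA.2740.1.S1_at, carries no gene symbol and differed by -1.85 ± 0.24 (adjusted p = 0.0445). Neither of these 2 calls passed without the animal BB4800, BB269 or BB4870.

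Squamous genes were below baseline in all 3 Low animals and, among the High animals, in BB967. BB269 and BB4870, the High animals with (A-) arrays, stayed near baseline. The median change of the cornified envelope list was -4.31, -1.93 and -5.43 in the Low animals BB173, BB537 and BB4800, against -2.78, 0.04 and -0.10 in the High animals BB967, BB269 and BB4870. CRNN changed by -8.55, -2.66 and -8.29 in the Low animals and by -6.13, -0.06 and -0.11 in the High animals, a difference of -4.40 ± 2.17 that did not pass (adjusted p = 0.598). LORICRIN changed by -5.49, -7.78 and -8.02 in the Low animals and by -4.69, 0.01 and -0.07 in the High animals, a difference of -5.51 ± 1.92 (adjusted p = 0.483). With spreads of this size, 3 animals a dose do not show that the doses acted alike. The interferon and restriction list had medians of -1.14, -0.18 and -1.20 in the Low animals, against -0.56, 0.43 and 0.72 in the High animals. In limma 0 of its 24 genes passed the difference, though 15 had an unadjusted p under 0.05 (1121 of 11198 named genes). The extracellular matrix list had a median above 0 in all 6 animals, at 0.55, 2.09 and 0.97 in the Low animals and 1.90, 1.73 and 1.42 in the High animals.

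The named genes closest to passing as lower under Low than High were ZNF57, a zinc finger gene, with a difference of -1.40 ± 0.20 (adjusted p = 0.103), the leukotriene receptor LTB4R with -2.11 ± 0.37, NIPAL1, of a magnesium transporter family, with -3.13 ± 0.56, TENT5B with -2.07 ± 0.38 and the oxidoreductase TP53I3 with -1.75 ± 0.32. NIPAL1 changed by -3.91, -2.74 and -5.05 in the Low animals and by -1.92, 0.11 and -0.50 in the High animals. In the other direction stood the RNA-binding STAU2 with 0.70 ± 0.15, PARM1 with 0.87 ± 0.20, the Integrator subunit INTS4 with 0.55 ± 0.12, MLLT3, a chromatin reader, with 1.36 ± 0.32, and PSD3 with 0.72 ± 0.17. Their adjusted p lay between 0.103 and 0.46, and other probe sets of PSD3 had changes over both times of -1.55 to 0.73 in the Low animals.

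**Figure D5:**
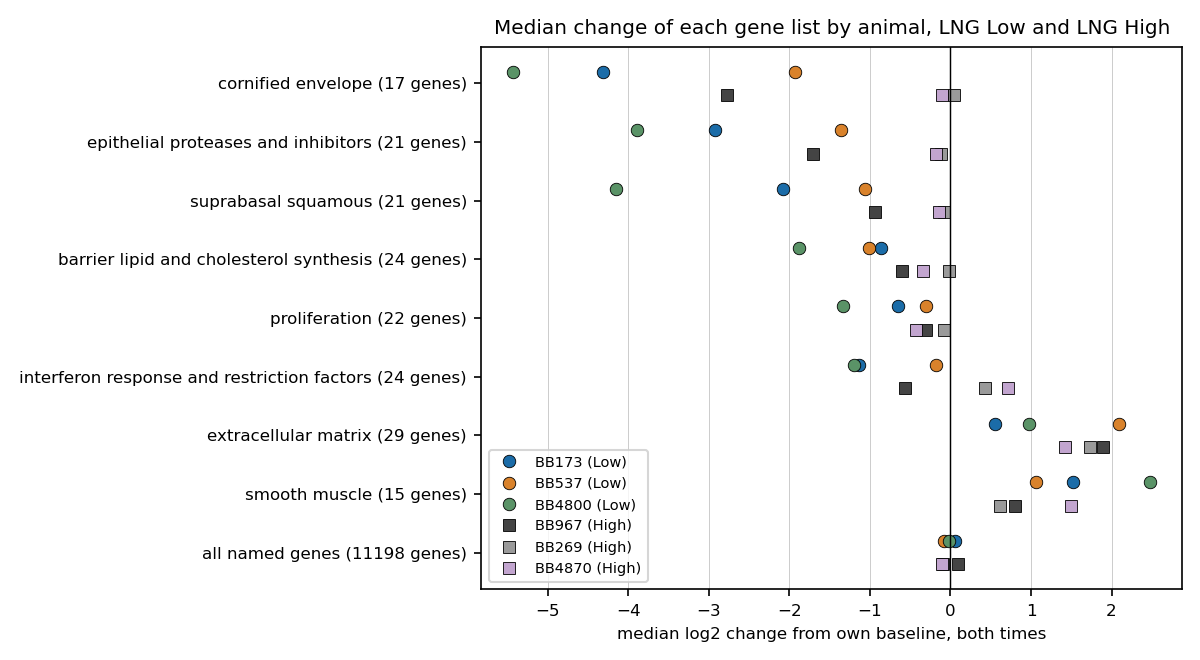
Median log2 change of each gene list from own baseline over both times, by animal (circles, LNG Low; squares, LNG High). The cornified envelope medians lie between -5.43 and -1.93 in the Low animals, and at -2.78, 0.04 and -0.10 in the High animals BB967, BB269 and BB4870.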

How the data were processed

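Expression was measured in vaginal biopsies of 15 macaques on 58 arrays. The deposited log2 values, 1 column per array, were made by the authors with affy and Partek, per the submitters' processing notes, which give no versions. Background correction and normalization are not given in the sources used here; array medians of 6.07 to 6.25 are alike, as after normalization between arrays, which can hide a shift shared by most genes. Precision is limited by how many arrays there are.

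The arrays hold 52865 probe sets. After removal of 158 controls, probe sets with a mean under the 40th percentile (log2 of 5.53) were dropped, leaving 31624. Symbols came from GEO's platform annotation: 24969 probe sets carry 1 symbol, 361 several and 27535 none, and 2 older symbols were updated. The brightest kept probe set stands for a gene, and 4774 genes have others too. The others are not given for every named gene, and some changed less. Over both times they changed by 0.31 to 1.91 for DCN, 0.10 to 0.41 for PGRMC1 and 0.26 for EPM2A. For PLAUR they changed by -0.91 to -0.13, for SDC1 by -1.16 to -0.32 and for LTB4R by -1.01 to -0.53, against -2.38 on its brightest. The duplicate late follicular array of BB537 and its partner were averaged (SD of their difference 0.465), giving 57 samples.

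Baseline and treated samples were paired by the animal named in the labels. For both times together, 1 change per animal was fitted with limma 3.58.1 in R 4.3.3 over 15 animals in 5 groups of 3, which share 1 spread; single times were fitted on 57 samples with the animal as a fixed block. Adjusted p values are Benjamini-Hochberg values over all probe sets kept. The procedure was tested on simulated data. Gene lists (34, with 550 of 843 genes measured, 2 to 29 per list) are described by counts and medians, and the members and lists were chosen with earlier results of these data known. Named genes were the 10 largest rises and falls that passed and moved the same way in every animal at both times, up to 3 genes of smallest p per list, 5 in each direction for the difference from LNG High, 3 for the 7th against the 5th time, and 11 genes set by name; 120 of these 143 genes are named, and TRIM7 and an unnamed probe set were added as the calls of the dose comparison. The labels do not say more on how biopsies of 1 animal were spaced.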

Additional observations from a re-analysis of the deposited data

Results flagged for a closer look

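Among the 6 treated libraries and among the 5 baseline samples of the LNG Low animals, the highest and lowest value of each named gene and each list's mean level was set against the rest of its group by Dixon's test, which chance alone passes in about 1 group in 20. Of 314 groups, 48 held a value that stood far from the others, and 26 of these values came from the 5th library of BB4800.

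That library had the lowest mean levels of basal keratinocyte genes (9.52), junction genes (6.66), antimicrobial genes (7.33), T cell genes (5.85) and squamous transcription factors (6.67), and the highest of endothelium genes (9.08), mast cell genes (7.84) and melanocyte and nerve genes (9.11). It had the lowest levels of KRT13 (10.42), KRT4 (9.0), TP63 (5.79), JUP (8.47), SDC1 (8.27), AREG (3.51), ELF5 (4.00), HSD17B8 (8.97), BLNK (5.92), GYS1 (5.75), JUNB (8.29) and PITX1 (6.59). Its levels of MASP1 (11.70), ITGB1 (12.26), OGN (12.64), IGFBP6 (13.10), TIE1 (8.26) and S100B (9.88) were the highest of the treated libraries. Epithelial genes were thus low and stromal, vessel and nerve genes high in the same library.

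The 7th library of BB537 stood above the other treated libraries for TMPRSS11B (12.43), SPINK7 (11.81), LOC717850 (12.87), IL36RN (7.19), LY6G6C (8.89), TGM5 (7.01), TGM1 (10.15), KRT80 (7.69), HOPX (12.83), NSDHL (9.40), NIPAL1 (8.44) and TENT5B (9.33), and below them for MLLT3 (6.44). It carries the label (A-), as does the 7th library of BB173. Against BB537's own baseline, the genes that stood higher there changed by -4.5 (IL36RN) to 0.05 (HOPX). In the 7th library of BB173, IL36RN changed by -5.62 and HOPX by -3.02.

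Among baseline samples, the early follicular one of BB173 was apart for LOC714943 (11.21), VNN2 (8.88) and PLAUR (9.81), and the early luteal one for antimicrobial genes (9.38) and RASL11B (6.43). The late follicular sample of BB537 was apart for B and plasma cell genes (7.25) and KRT80 (8.62), that of BB4800 for T cell genes (7.02) and its early luteal sample for TIE1 (5.76).

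The change under Low minus that under High passed for a probe set of TRIM7 (-1.69) and for MmugDNA.2740.1.S1_at (-1.85). It was 0.70 for STAU2 and 0.87 for PARM1, which were above baseline in all 3 Low animals and below it in all 3 High animals, and whose difference did not pass (adjusted p = 0.442 and 0.451, limma).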

How the results depend on the processing

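Counts of probe sets that passed depended most on single libraries and on the spread used. Over both times (5118), the count was 2362 with 1 probe set per gene, where fewer were tested, 3116 with the LNG animals alone, 372 with the LNG Low animals alone, where 3 animals set the spread, and 0 with the GAPDH covariate. The labels pair samples by animal: with no replicate block 8853 passed and with a random replicate block 8354. Leaving out 1 sample or animal gave 385 to 6707. At the 5th time (5210), the count was 2328 with 1 probe set per gene, 3282 with the LNG animals alone and 149 with the GAPDH covariate, and 132 to 5971 on leaving out 1 sample or animal. At the 7th time (226), the count was 1 with the GAPDH covariate, 3024 with array weights, 93 with baseline phases as separate terms, 345 without the duplicate array, 391 and 117 with the 60th percentile filter and no filter, 65 with no replicate block, 624 with a random one, 26 and 2 with the LNG Low or LNG animals alone, and 0 to 430 on leaving out 1 sample or animal. For the 7th against the 5th time (0), leaving out 1 sample or animal gave 0 to 205. For Low against High (2), the count was 0 with 1 probe set per gene, the GAPDH covariate, separate baseline phases or the LNG animals alone, 1 with the fixed block on all samples, the random replicate block, the 60th percentile filter, no filter or without the duplicate array, 6 with array weights, 552 with no replicate block, and 0 to 6 on leaving out 1 sample or animal.

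The shift of the 3' minus 5' differences ranged over 0.48 to 0.79 for GAPDH and 0.05 to 0.20 for actin on leaving out 1 sample or animal, and that of the stromal level over 1.00 to 1.86. Of the 120 named genes, 108 passed over both times, and with the GAPDH covariate 0 of these did: 100 kept their direction and no longer passed, and the direction turned in 8, to 0.73 for TMPRSS11B, 0.50 for CRNN, 0.26 for LOC714943, 0.29 for KRT13, 0.01 for PKP1, 0.31 for SDC1, -0.19 for EPM2A and 0.25 for PITX1, while of the 108 it turned in 0 under the other alternatives. Where a cause is not named, the cause was not tested.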

Other observations

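In the 7th library of BB537, genes of the upper layers split into those near that animal's late follicular baseline and those still far below it. The genes below were picked after their values were seen, each value is from 1 library, and the split has no replicate check. LORICRIN was at 6.04 in that library, against 13.30 at baseline, and CDSN, the corneodesmosin gene, at 9.78 against 12.95. SBSN, which encodes suprabasin, was at 9.22 against 12.74, and ALOXE3 and ALOX12B, lipoxygenases of the skin's lipid barrier, were at 5.89 and 8.51 against 10.23 and 11.85. The kallikrein inhibitor SPINK6 was at 4.36 against 12.42. SPRR3, a small proline-rich envelope protein of mucosal epithelia, was instead at 14.41 against 14.42, CSTA (cystatin A) at 13.66 against 13.68 and CNFN (cornifelin) at 13.25 against 13.52. At the 5th time the same animal had LORICRIN at 5.01, SPRR3 at 11.97 and CNFN at 10.02.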
